A study of Mus musculus with 11 samples.

Results

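The neuronal intermediate filament genes of the mouse are Nefl, Nefm and Nefh (the light, medium and heavy neurofilament chains), Ina (alpha-internexin) and Prph (peripherin). These 5 genes, of 54752 in the count data, were chosen by name, with the differences of some of them among these same libraries already known. Their levels and fold changes are therefore given as a description, without a p-value. The neurons came from 3 sensory nuclei of the thalamus in newborn mice at postnatal day 0, and the study set the nuclei against each other to find what distinguishes neurons by region. The dorsolateral geniculate nucleus (dLG, visual) gave 4 libraries, the ventral posteromedial nucleus (VPM, somatosensory) 4 and the ventral medial geniculate nucleus (MGv, auditory) 3. Each library held neurons from 4 pooled brains, sorted for red fluorescence. Every library had the same genotype and strain: Gbx2CreER-IRES-EGFP/+::R26lsl-tdTomato/+, ICR/CD-1. Cre, active after tamoxifen, was expressed from the Gbx2 locus and switched on tdTomato. The cells measured were therefore those with a history of using this locus while tamoxifen acted. No library analysed here came from mice without the alleles.

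Intermediate filaments are rope-like polymers that fill axons. Nefl and Ina can start a filament, whereas Nefm and Nefh join it and carry the long, heavily phosphorylated tails that space filaments and are known for their part in axon calibre. In the developing brain Ina is made early, Nefl and Nefm follow as axons extend, and Nefh comes up late. Prph is best known from peripheral neurons and from neurons that project out of the brain.

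The genes lie at 4 places in the genome (GRCm38, GENCODE M21). Nefl (ENSMUSG00000022055) spans chr14:68083863-68089095 on the plus strand and Nefm (ENSMUSG00000022054) chr14:68082590-68124846 on the minus strand. Nefh (ENSMUSG00000020396) is at chr11:4938754-4948064 on the minus strand, Ina (ENSMUSG00000034336) at chr19:47014698-47025327 on the plus strand and Prph (ENSMUSG00000023484) at chr15:99055174-99058978 on the plus strand. One long Nefm model runs across Nefl on the opposite strand, and the genes share 1108 exon bases, 32.8% of those of Nefl and 19.2% of those of Nefm. Ina likewise shares 456 exon bases, 14.1% of its own, with Nt5c2, a nucleotidase gene on the other strand. Whether reads were counted by strand was not stated, so reads from these shared bases may have been lost or assigned to the neighbour. Nefh and Prph shared no stretch of a read's length (50 bases) with another gene's transcripts.

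Promoter sequence was at hand for Ina and Prph, which were among the most and the least abundant of the 5 genes; Nefl, Nefm and Nefh were not matched. The 250 bases before each start (RefSeq, GRCm38.p6) were searched on both strands for 3 short motifs. The TATA box, TATAAA, is held by 12.4% of 32851 promoter windows of that length. The GC box, GGGCGG, is held by 32.7% of them. The E-box, CAGNTG, is held by 44.8%. Capitals mark the matches, and GGGCGG on the minus strand reads CCGCCC on the strand shown. Ina is chr19:47014431-47014680 and Prph chr15:99054924-99055173, both on the plus strand.
Ina: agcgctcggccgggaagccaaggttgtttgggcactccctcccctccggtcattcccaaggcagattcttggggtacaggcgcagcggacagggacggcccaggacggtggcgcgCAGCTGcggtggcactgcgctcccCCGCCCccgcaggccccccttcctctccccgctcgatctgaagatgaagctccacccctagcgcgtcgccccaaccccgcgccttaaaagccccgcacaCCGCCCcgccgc
Prph: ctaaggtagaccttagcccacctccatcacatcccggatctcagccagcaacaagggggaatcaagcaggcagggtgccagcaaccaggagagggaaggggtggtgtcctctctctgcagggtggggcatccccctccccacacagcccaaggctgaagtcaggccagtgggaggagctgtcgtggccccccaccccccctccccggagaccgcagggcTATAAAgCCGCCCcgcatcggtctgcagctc
The Prph window held TATAAA 31 bases before the start and a GC box (GGGCGG) 24 bases before it. The Ina window held no TATAAA, a GC box 111 and 12 bases before the start, and CAGCTG, which reads the same on both strands, at 135. These matches describe the letters of the windows only.

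Total counts per library ran from 10175653 to 23559130, so that 3 counts correspond to 0.127 to 0.295 CPM, the usual unit of counts relative to library size. Levels below are CPM after TMM scaling, which evens out libraries in which a few genes take many counts, and n is 4, 4 and 3 for dLG, VPM and MGv throughout. Summed thalamic neuron markers, such as Slc17a6 and Tcf7l2, reached 1924 to 3461 CPM, against 0.817 to 5.44 for cortical neurons and 0.109 to 2.25 for peripheral sensory neurons, a population rich in Prph. Markers of retinal ganglion cells, whose axons reach the dLG and are rich in neurofilament, summed to 3.55 to 11.6 CPM, with Pou4f2 at 0 in every library. Habenula markers summed to 52.9 to 113 CPM, with Nhlh2 at means of 94.3, 56.5 and 45.4 in dLG, VPM and MGv. Gng8 of the same list ran the other way, at means of 1.93, 5.04 and 21.4, and Pou4f1 and Tac2 were near 0. Red blood cell markers summed to 0.143 to 514 CPM in dLG, 0.13 to 11.7 in VPM and 0 to 0.351 in MGv. The dLG libraries differed widely: Hbb-bs had a mean of 86.9 CPM there, with an SD of 174 and a highest value of 347. Libraries dLG 2, VPM 3 and MGv 1 stood apart, with 3.05 to 5.56 CPM of the chaperone gene Hspa8 against 159 to 581 in the other 8. Values without these 3 libraries follow each member below. In bulk samples, fewer cells of a type and less RNA per cell cannot be told apart.

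Mean levels of Nefl and Nefm were highest in VPM, intermediate in dLG and lowest in MGv. Libraries of Ina overlapped between all nuclei. Nefh and Prph were scarce and had their highest means in VPM. VPM thus had the highest mean for 4 of the 5 genes, and MGv for 1, Ina. Per kilobase of exon, the scale on which genes can be set against each other, the mean level in dLG was 445 CPM for Nefl, 379 for Ina, 145 for Nefm, 3.16 for Nefh and 1.00 for Prph. The order was the same in VPM, at 634, 390, 210, 7.35 and 1.84. In MGv the first 2 changed places, with Ina at 445, Nefl at 225, Nefm at 49.4, Nefh at 3.87 and Prph at 0.636. With these lengths, neighbours in this order overlapped between libraries only in dLG. There, Nefl ran from 361 to 523 and Ina from 299 to 501 CPM per kilobase. The length used for Nefm, 5782 bases, includes the long model that runs across Nefl, which lowers Nefm here if that model is unused. With shared exon bases left out, the order of means was the same, but Ina in VPM 3 (314) fell just below Nefm in VPM 1 (316).

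**Figure D1:**
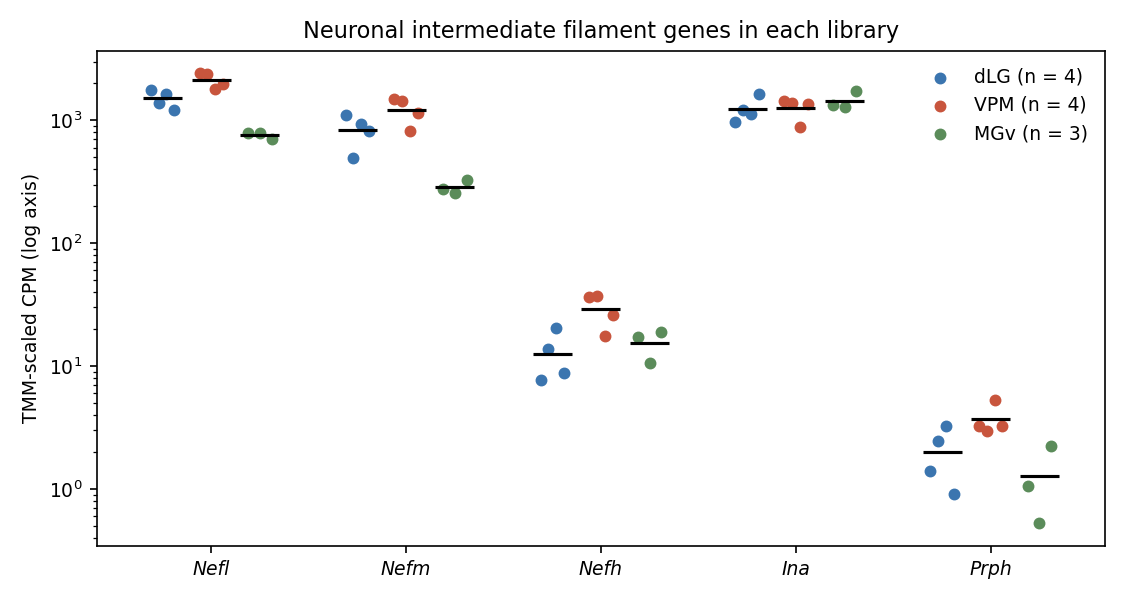
Level of each gene in each library, as TMM-scaled CPM on a log axis; points are the 4, 4 and 3 libraries of the nuclei, coloured by nucleus, and bars are means. The MGv points of Nefl and Nefm lie below every dLG and VPM point, those of Ina lie among the others, and Nefh and Prph sit far below the other 3 genes.

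Nefl, the light chain, was at 1769, 1380, 1644 and 1222 CPM in dLG 1 to 4, at 2413, 2380, 1785 and 1987 in VPM 1 to 4, and at 793, 793 and 699 in MGv 1 to 3. MGv lay below both other nuclei without overlap. VPM lay above dLG by a narrow margin, 1785 in VPM 3 against 1769 in dLG 1, which depends on the scaling: by total counts VPM 3 was at 1522 CPM, below dLG 1 (1831) and dLG 3 (1655). The means were 1504 ± 248 (SD) in dLG, 2141 ± 306 in VPM and 762 ± 54.8 in MGv. The log2 fold change was 1.49 ± 0.16 (SE) between VPM and MGv, 0.98 ± 0.16 between dLG and MGv and -0.51 ± 0.14 between dLG and VPM, the last not passing the threshold under total counts or without dLG 4, VPM 1 or VPM 2. Without the libraries low in Hspa8, the means were 1545 ± 287, 2260 ± 237 and 746 ± 67.1 (n = 3, 3 and 2).

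Nefm, the medium chain, followed the same order with larger steps. Its level was 1105, 491, 940 and 812 CPM in dLG 1 to 4, 1476, 1428, 816 and 1138 in VPM 1 to 4, and 276, 254 and 327 in MGv 1 to 3. The highest MGv library was below the lowest of dLG and of VPM, while dLG and VPM overlapped. The lowest library in dLG (dLG 2) and in VPM (VPM 3) were both low in Hspa8. Means were 837 ± 260, 1215 ± 305 and 286 ± 37.7 CPM, and 952 ± 147, 1348 ± 183 and 291 ± 51.9 without the libraries low in Hspa8. The mean in VPM was 4.25-fold that in MGv on the fitted scale (log2 fold change 2.09 ± 0.27), and that in dLG 2.93-fold (1.55 ± 0.26). Between dLG and VPM the log2 fold change was -0.54 ± 0.23.

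Nefh, the heavy chain, was scarce, at 0.00845, 0.0134 and 0.0206 of the CPM of Nefl in dLG, VPM and MGv (mean ratio within libraries). It was at 7.73, 13.7, 20.2 and 8.78 CPM in dLG, 36.2, 37.4, 17.7 and 26.2 in VPM, and 17.1, 10.5 and 18.8 in MGv. VPM 3 lay within the range of both other nuclei, and the remaining VPM libraries lay above both. The log2 fold change was -1.22 ± 0.32 between dLG and VPM, 0.92 ± 0.35 between VPM and MGv and -0.29 ± 0.34 between dLG and MGv. The estimate between VPM and MGv kept its direction in all 24 other settings, at 0.72 to 1.25, and passed the threshold in 13 of them, the fit without the libraries low in Hspa8 included. The means were 12.6 ± 5.70, 29.3 ± 9.26 and 15.5 ± 4.36 CPM, and 12.2 ± 6.92, 33.2 ± 6.16 and 14.6 ± 5.82 without the libraries low in Hspa8.

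Ina, which can form filaments alone in young neurons, was at 969, 1202, 1119 and 1623 CPM in dLG, 1448, 1375, 874 and 1351 in VPM, and 1325, 1274 and 1724 in MGv. All 3 nuclei overlapped. The means were 1228 ± 280, 1262 ± 262 and 1441 ± 246 CPM, and the log2 fold change of dLG was -0.04 ± 0.19 relative to VPM and -0.23 ± 0.20 relative to MGv, with VPM at -0.19 ± 0.20 relative to MGv. No estimate lay more than 2 SE from 0, and the sign between dLG and VPM turned in 6 of 24 other settings (-0.24 to 0.05), which does not show that the levels are alike. Without the libraries low in Hspa8 the means were 1237 ± 342, 1392 ± 50.5 and 1499 ± 318.

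Prph rested on few counts: 23, 57, 60 and 19 in dLG, 70, 69, 85 and 68 in VPM, and 14, 6 and 23 in MGv. As CPM these were 1.40, 2.45, 3.27 and 0.907 in dLG, 3.24, 2.99, 5.27 and 3.23 in VPM, and 1.05, 0.527 and 2.24 in MGv. Every library was above 3 counts. VPM lay above MGv without overlap (log2 fold change 1.54 ± 0.54), and dLG overlapped both (-0.87 ± 0.46 against VPM, 0.67 ± 0.53 against MGv). VPM 3 was the highest library, and without the libraries low in Hspa8 the means were 1.86 ± 1.25, 3.15 ± 0.146 and 1.38 ± 1.21 CPM.

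**Figure D2:**
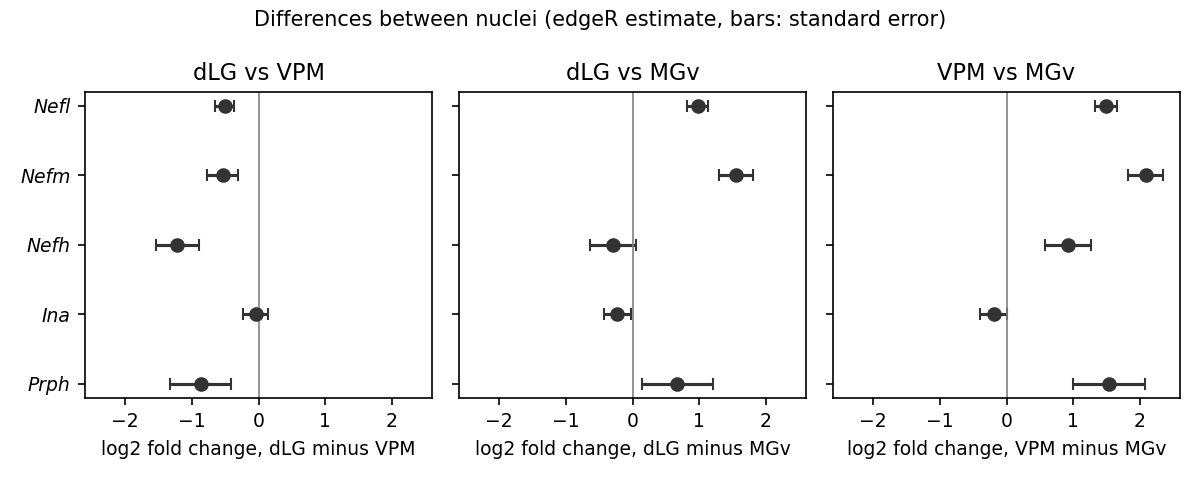
Log2 fold change of each gene between nuclei (edgeR estimate over 11 libraries, first nucleus minus second), with bars of 1 SE. Nefl and Nefm lie to the right of 0 in both contrasts with MGv, at 0.98 to 2.09, while Ina stays within -0.23 to -0.04 in all 3.

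At an adjusted p under 0.1 in a fit over 15907 genes, 2 members passed between dLG and VPM (Nefl and Nefh, both higher in VPM), where 10.7% of all genes passed in either direction and 5.74% towards VPM. When dLG was set against MGv, 2 passed (Nefl and Nefm, higher in dLG), where 16.1% of genes passed and 8.61% towards dLG. Between VPM and MGv, 3 passed (Nefl, Nefm and Prph, higher in VPM), where 19.0% passed and 10.4% towards VPM. Non-overlapping libraries were found for 1, 2 and 3 members (with total counts, Nefl of dLG and VPM overlapped), where 7.12%, 12.4% and 13.1% of all genes were separated in those directions. The contrasts share libraries, and as they were known when the genes were chosen, nothing is read from these counts. The median log2 fold change of the 5 members was -0.54, 0.67 and 1.49 in the 3 contrasts. Over all genes the median was 0.0048, 0.0154 and 0.0221, which scaling between libraries keeps near 0. The median absolute log2 fold change over all genes was 0.271, 0.324 and 0.362. Nothing is read from these medians either, as the members were chosen with their differences known. With the threshold kept, Nefl and Nefm passed against MGv under all 24 other settings of the fit, and Ina passed in none. With an added minimum absolute log2 fold change of 1, Nefl did not pass between dLG and MGv (0.98). The dLG and VPM difference was less stable: without dLG 4 or without VPM 2 the members passing fell to 0, and without VPM 1 to 1. With the libraries low in Hspa8 left out, 3, 2 and 3 members passed. Prph did not pass between VPM and MGv in 7 of 23 settings, the one without those libraries among them.

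The 5 genes together took 0.399, 0.317, 0.375 and 0.388% of all counts in dLG 1 to 4, 0.534, 0.512, 0.298 and 0.463% in VPM 1 to 4, and 0.244, 0.234 and 0.280% in MGv 1 to 3. The MGv libraries were below all others, while VPM 3 fell below every dLG library and the other VPM libraries lay above dLG. The place of VPM 3 depends on the scaling. After TMM scaling its family sum was 3498 CPM, above dLG 2 (3089) and below the other dLG libraries. The means were 0.370% ± 0.037 in dLG, 0.452% ± 0.107 in VPM and 0.253% ± 0.024 in MGv. Per kilobase, Ina made up 29.4, 42.7, 34.5 and 49.8% of the summed family level in dLG 1 to 4, 31.3, 30.6, 28.5 and 34.5% in VPM 1 to 4, and 58.7, 58.3 and 66.4% in MGv 1 to 3. The MGv shares stood above those of every other library. Nefl made up 45.8% ± 6.79 in dLG, 51.3% ± 3.15 in VPM and 31.4% ± 4.91 in MGv, and Nefm 14.7% ± 3.84, 16.7% ± 1.42 and 6.81% ± 0.281. Leaving out the exon bases shared with other genes from the lengths gave Ina 34.5, 27.1 and 56.1% in the 3 nuclei, in the same order. Nefl then made up 51.4, 56.9 and 36.8%, and Nefm 13.7, 15.4 and 6.64%. Bases of the long Nefm model outside Nefl stayed in its length.

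**Figure D3:**
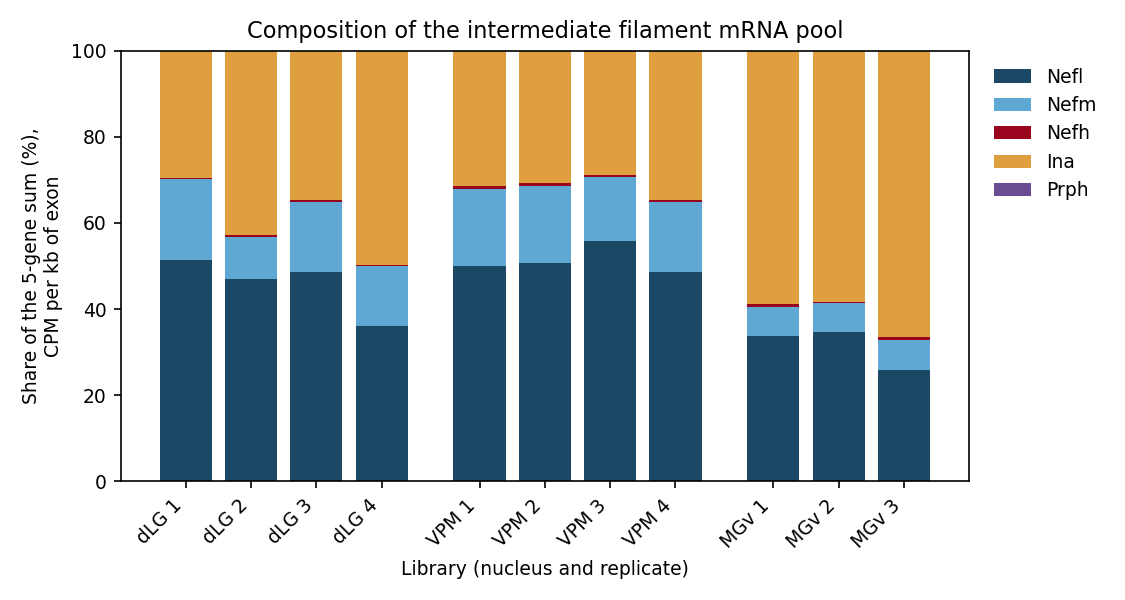
Share of each gene in the summed level of the 5 genes (CPM per kilobase of exon, in percent), 1 stacked bar per library. The length of Nefm includes its long model across Nefl. Ina takes 58.3 to 66.4% of each MGv bar and 28.5 to 49.8% of the dLG and VPM bars, and Nefh and Prph are barely visible.

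Ratios within a library, which do not depend on scaling between libraries, showed the same. The ratio of Ina to Nefl in CPM was 0.857 ± 0.341 in dLG, 0.587 ± 0.0784 in VPM and 1.91 ± 0.480 in MGv. Nefm to Ina was 0.722 ± 0.335, 0.959 ± 0.0897 and 0.199 ± 0.00903, and its MGv libraries, at 0.208, 0.199 and 0.190, lay close together. Nefm to Nefl was 0.554 ± 0.138, 0.560 ± 0.0708 and 0.379 ± 0.0791. In this last ratio dLG 2 (0.356) fell among the MGv libraries (0.347, 0.320 and 0.469), as did VPM 3 (0.457), both low in Hspa8. The ratio of Nefh to Nefm was 0.0168 ± 0.00966 in dLG, 0.0238 ± 0.00195 in VPM and 0.0536 ± 0.0108 in MGv.

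Other measures moved with the nuclei too. The summed level of 10 dissociation response genes, such as Fos and Dusp1, was 283 to 381 CPM in VPM, 480 to 736 in dLG and 612 to 832 in MGv, the reverse order of Nefl, although dLG and MGv overlapped. Of these 10 genes, 5 passed as higher in dLG than in VPM and 6 as higher in MGv than in VPM. Summed markers of the oligodendrocyte lineage were 12.5 to 30.2, 32.7 to 43.4 and 74.9 to 85.9 CPM in dLG, VPM and MGv, most of it from Mbp in VPM and MGv (28.0 ± 2.68 and 66.4 ± 4.61), with Sox10 and Olig2 at 0 in every MGv library. Those of GABAergic neurons were 66.4 to 95.1, 22.9 to 47.8 and 71.1 to 102. Astrocyte and radial glia markers summed to 58.3 to 141, 88.1 to 153 and 76.2 to 193 CPM, overlapping between nuclei. Slc1a3, a glial glutamate transporter, was at 72.5 ± 23.8 CPM in MGv against 6.35 ± 7.83 in dLG and 7.15 ± 3.25 in VPM. In each contrast with MGv, 2 of the 7 genes were called higher in MGv and none lower. Aqp4 also had its highest mean in MGv, but Fabp7, Sox9 and Gja1 had their lowest there. Fabp7 was at 35.3 ± 36.1 CPM in MGv against 65.5 ± 39.6 in dLG and 64.5 ± 26.1 in VPM. Aldoc and Aldh1l1 had their highest means in VPM. Gbx2, whose locus drove the label, was at 14.2 to 51.6 CPM in dLG and VPM and at 272 to 333 in MGv. The part of each in the Nefl and Nefm differences was not tested.

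Genes for the anchoring, transport, regulation and turnover of these filaments were read beside them, with those of the axonal membrane skeleton. The lists, made with earlier results known, also held other intermediate filaments and lamins and genes of young and maturing neurons. Of 91 genes in all these lists, 83 were tested. The edgeR fit called 9 between dLG and VPM (10.8%), 21 when dLG was set against MGv (25.3%) and 28 for VPM against MGv (33.7%). In those contrasts, 10.7%, 16.1% and 19.0% of all genes were called. For VPM against MGv, 14 list genes were higher in VPM and 14 in MGv. Over all genes, 10.4% and 8.56% were called in those directions. Without MGv 3 the count of 28 fell to 17, and without the libraries low in Hspa8 the counts were 13, 25 and 31. Adjusted p-values below are from edgeR's quasi-likelihood test with Benjamini-Hochberg adjustment over 15907 genes, and they measure only the spread between these libraries.

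Among other intermediate filaments and lamins, 11 of 16 were tested, and 2, 4 and 5 passed. Counts of this kind are given in 1 order throughout, VPM with dLG, MGv with dLG and MGv with VPM. Krt19, a type I keratin, was at 25.4 ± 10.3 CPM in VPM, 1.46 ± 0.993 in dLG and 1.88 ± 0.533 in MGv (log2 fold change 3.74 ± 0.53 between VPM and MGv, adjusted p = 0.00039). Synm, a large filament protein that pairs with vimentin, was at 3.65 ± 0.673 CPM in dLG and 11.5 ± 1.39 in MGv (adjusted p = 0.0071), and VPM, at 6.53 ± 2.86, did not pass against either. Vim, the vimentin of immature and non-neuronal cells, was higher in dLG (52.1 ± 14.2 CPM) and VPM (54.0 ± 10.6) than in MGv (31.5 ± 8.49), with adjusted p of 0.078 and 0.056. Both Vim calls were lost when replicate number was a block, and in several fits without 1 library (adjusted p from 0.0042 to 0.25 for dLG and from 0.0014 to 0.18 for VPM over all settings). Lmnb1, a lamin of the nuclear envelope, was higher in dLG than in VPM (27.9 ± 2.08 against 17.9 ± 3.30 CPM, adjusted p = 0.053), a call lost without dLG 3, dLG 4, VPM 1 or VPM 2. The remaining calls, named after their values were seen, were Sync, lower in MGv than in both other nuclei, Nes, higher in MGv than in both, and Iffo1, higher in MGv than in VPM. None of the 4 plakin crosslinkers tested, which tie filaments to other cytoskeletal systems, passed in any contrast by edgeR; at an unadjusted p under 0.05 there were 1, 0 and 1, DESeq2 called 1, 0 and 1, and limma voom 1, 0 and 0.

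The membrane skeleton of axons, the spectrin lattice under the plasma membrane, had 10 members, of which 1, 3 and 4 passed. Epb41l3, a protein 4.1 that links spectrin to membrane proteins, was the gene of all lists that most closely matched Nefm: it was at 73.9 ± 14.3 CPM in dLG, 113 ± 19.2 in VPM and 29.4 ± 0.550 in MGv. Its log2 fold changes were 1.94 ± 0.19 between VPM and MGv (adjusted p = 1.7e-05), 1.33 ± 0.18 between dLG and MGv (adjusted p = 0.00027) and -0.61 ± 0.16 between dLG and VPM (adjusted p = 0.032), the last lost with scaling by total counts (adjusted p from 0.0010 to 0.12 over all settings). Of the adducins, which cap actin in the lattice, Add2 was higher in MGv than in dLG (adjusted p = 0.094) and VPM (adjusted p = 0.047), and Add3 higher in VPM than in MGv (adjusted p = 0.079). The Add2 call against dLG held in 12 of 24 settings, that against VPM was lost without MGv 3, and the Add3 call was lost under total counts and without VPM 1, VPM 2, MGv 1 or MGv 2.

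Slow axonal transport carries neurofilaments along microtubules. Of 10 motor genes 0, 3 and 2 passed, the 0 by edgeR against 1 at an unadjusted p under 0.05, 1 by DESeq2 and 5 by limma voom. Dync1i1, an intermediate chain of the dynein motor, was at 139 ± 34.1 CPM in dLG, 193 ± 30.5 in VPM and 39.7 ± 2.89 in MGv (log2 fold change 2.28 ± 0.20 between VPM and MGv, adjusted p = 9.6e-06, and 1.81 ± 0.20 between dLG and MGv, adjusted p = 4.6e-05). Dctn1, a subunit of the dynactin complex that works with dynein, went the other way, at 37.9 ± 6.81, 44.5 ± 6.58 and 77.6 ± 6.36 CPM (adjusted p of 0.0011 and 0.0069 against MGv). Kif3a, a kinesin-2 motor, was higher in MGv than in dLG (768 ± 109 against 596 ± 24.02 CPM, adjusted p = 0.072), a call that held in 16 of 24 settings.

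Of 13 genes for kinases and phosphatases that act on neurofilament tails, 0, 1 and 1 passed, the 0 by edgeR against 1 at an unadjusted p under 0.05, 0 by DESeq2 and 2 by limma voom. Mapk10, the neuronal JNK3 kinase, was higher in MGv (172 ± 9.08 CPM) than in dLG (120 ± 10.4; adjusted p = 0.017). Gsk3a, named after its values were seen, was higher in VPM than in MGv (log2 fold change 0.76 ± 0.22, adjusted p = 0.034). Of 4 regulators of neurofilament mRNA, Arhgef28, whose protein binds Nefl mRNA, was the 1 that passed, in both contrasts with MGv (none passed between dLG and VPM by edgeR, DESeq2, limma voom or an unadjusted p under 0.05), at 46.9 ± 5.16 CPM in dLG, 42.9 ± 7.67 in VPM and 74.8 ± 13.3 in MGv (adjusted p of 0.021 and 0.0082 against MGv).

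Turnover and chaperone genes numbered 11, of which 2, 3 and 5 passed. Hspb1, a small heat shock protein that keeps filaments from clumping, ran from 5.20 to 16.2 CPM in dLG, 4.16 to 8.30 in VPM and 0.0751 to 0.527 in MGv. The MGv values lie around the level of 3 counts, so no fold is given. Its calls against MGv had adjusted p of 5.1e-05 (dLG) and 0.00020 (VPM). Capn2, a calcium-activated protease that cleaves neurofilaments, was higher in VPM than in dLG (123 ± 24.8 against 71.9 ± 18.6 CPM, adjusted p = 0.031). Stub1, a ubiquitin ligase that works with chaperones, was higher in MGv than in dLG (380 ± 51.2 against 274 ± 33.8 CPM, adjusted p = 0.038), a call lost with offsets for GC content and length and without MGv 2 or MGv 3. Capn1 (lower in MGv than in both), Cast and Hspb8 (both lower in MGv than in VPM) were named after their values were seen.

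**Figure D4:**
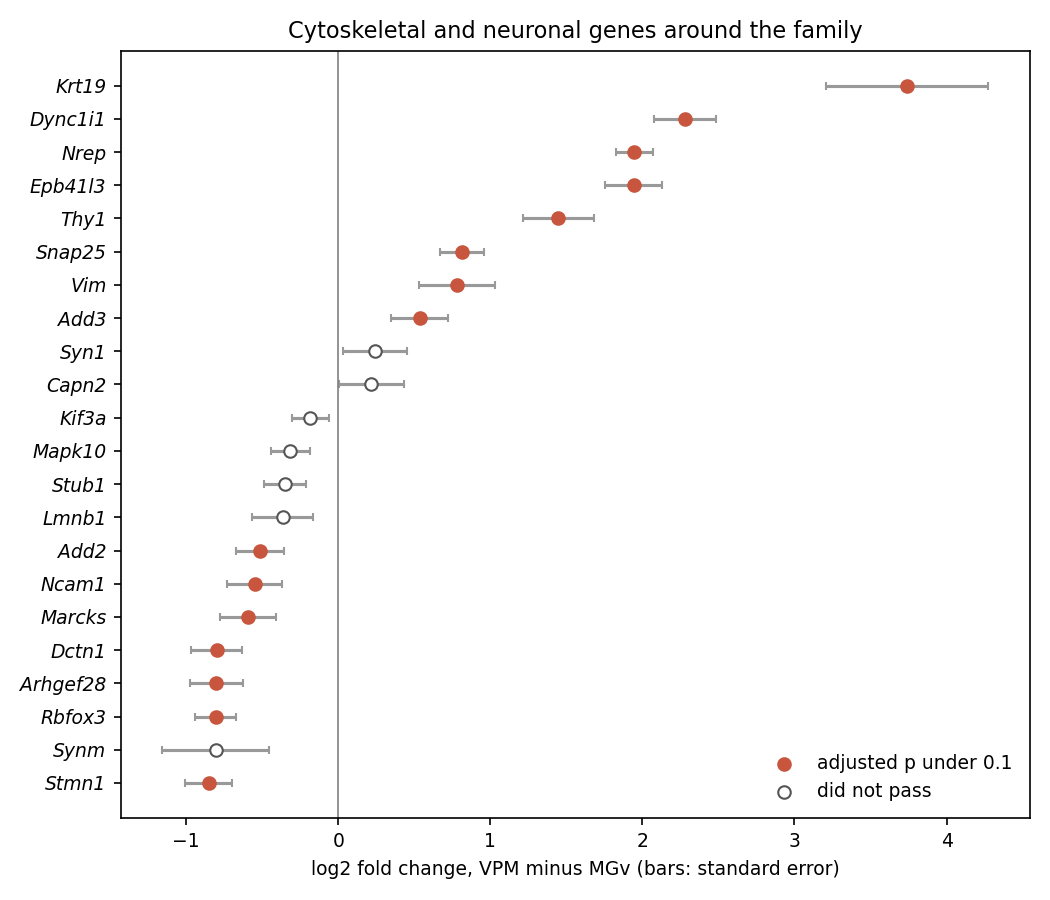
Log2 fold change between VPM and MGv (VPM minus MGv, edgeR, bars of 1 SE) of the named cytoskeletal and neuronal genes; filled points had an adjusted p under 0.1. Krt19, Dync1i1, Nrep and Epb41l3 lie furthest towards VPM, at 3.74, 2.28, 1.95 and 1.94, while Stmn1 lies at -0.85; Hspb1 is left out for its few counts in MGv.

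As neurofilament mRNA rises when neurons mature, 10 genes of young and 10 of maturing neurons were read beside it. The young neuron genes gave 1, 2 and 4 calls and the maturing ones 3, 4 and 6, in mixed directions. Among the former, Nrep, a small protein of growing neurons, was at 574 ± 40.1, 759 ± 33.4 and 197 ± 15.4 CPM in dLG, VPM and MGv, the order of Nefl (log2 fold change 1.95 ± 0.12 between VPM and MGv, adjusted p = 4.7e-07). Its call between dLG and VPM (adjusted p = 0.032) was lost under total counts, without a count filter and without dLG 4 (adjusted p from 0.00053 to 0.13 over all settings). Stmn1, which frees tubulin from microtubules, was higher in MGv (184 ± 19.4 CPM) than in dLG (105 ± 10.5; adjusted p = 0.0035) and VPM (102 ± 19.6; adjusted p = 0.0027). Marcks and Ncam1 were higher in MGv than in VPM (adjusted p of 0.048 and 0.062), each in 20 of 24 settings.

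Maturing neuron genes split as well. Thy1, a surface glycoprotein of mature projection neurons, was at 85.0 ± 18.4 CPM in VPM, 31.2 ± 6.71 in MGv and 13.3 ± 3.33 in dLG (adjusted p of 0.0010 for VPM against MGv and 0.0025 for dLG against MGv), so dLG, not MGv, was lowest. Snap25, of the vesicle fusion machinery, was higher in VPM (475 ± 24.1 CPM) than in dLG (310 ± 26.6; adjusted p = 0.011) and MGv (270 ± 54.5; adjusted p = 0.0023). Rbfox3, the NeuN antigen, was higher in MGv (249 ± 31.2 CPM) than in dLG (159 ± 21; adjusted p = 0.0060) and VPM (142 ± 8.72; adjusted p = 0.0016). Syn1, a synaptic vesicle protein, was higher in VPM than in dLG (290 ± 71.8 against 181 ± 16.1 CPM, adjusted p = 0.049), a call lost under total counts, with the replicate block and without dLG 3, VPM 1 or VPM 2. Among the others, named after their values were seen, Camk2b was higher in MGv than in both other nuclei, Nsg2 higher in MGv than in dLG, and Map2 and Mapt higher in MGv than in VPM.

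The genes with the most similar pattern were found by the root mean square difference of centred log2 CPM over the 11 libraries, among 8627 protein-coding genes with a mean of at least 10 CPM. This is a description of 11 libraries in which all genes share the nuclei, the libraries and their depth. Nefl, whose own values spread by 0.613 around their mean, was most similar to Ngly1 (0.181), a glycanase, Tspan9 (0.215), a tetraspanin, and Ccng1 (0.226), a cyclin, while Nefm differed from Nefl by 0.364. Nefm, with a spread of 0.896, was most similar to Camk4 (0.229), a calcium-dependent kinase, Epb41l3 (0.287) and Adamts17 (0.308), a secreted protease. Camk4 was at 410 ± 57.8, 644 ± 150 and 173 ± 15.7 CPM in dLG, VPM and MGv. Nefh, with a spread of 0.716, had no close match: Pde10a (0.395), Opn3 (0.403) and Dcun1d4 (0.415) came nearest, and Nefl was at 0.682. Ina varied little, with a spread of 0.280, and was most similar to Plcg1 (0.113), Lrp10 (0.125) and 5031439G07Rik (0.128). Prph was below 10 CPM and was left out of this search.

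**Figure D5:**
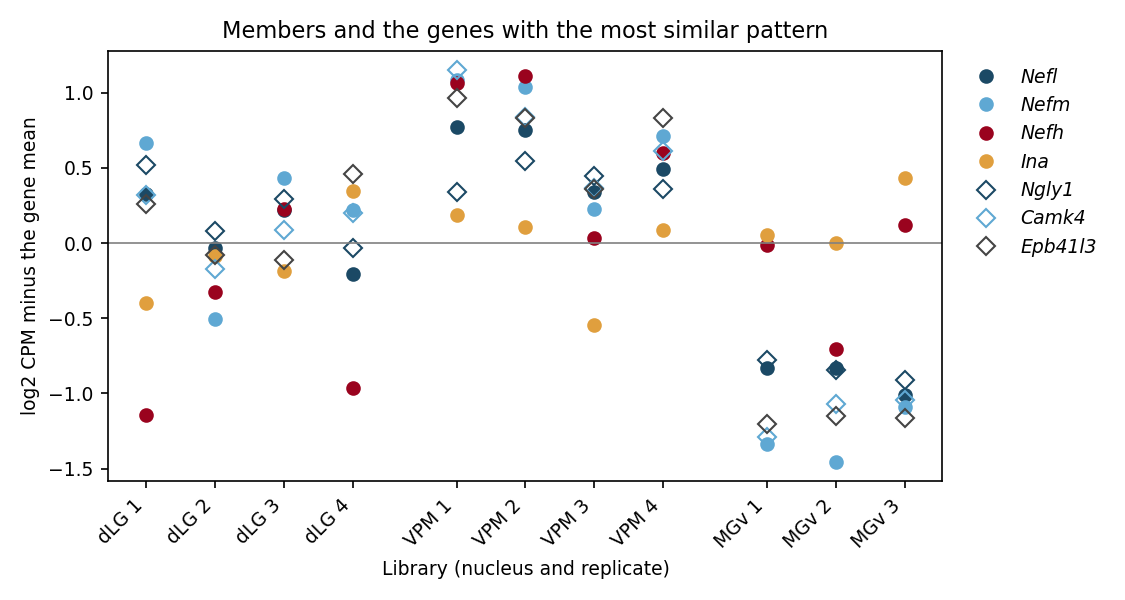
Log2 CPM of each library minus the mean of the gene over the 11 libraries, for 4 members (filled) and 3 genes of similar pattern (open diamonds). Nefl, Nefm, Ngly1, Camk4 and Epb41l3 lie below 0 in every MGv library and above 0 in every VPM library, whereas Ina does not separate the nuclei and Nefh scatters within dLG.

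Genes near the members were read for the same contrasts. Within 500 kb of Nefl and Nefm the 1 other protein-coding gene tested was Kctd9, at 2.91 ± 0.883, 2.86 ± 0.755 and 1.54 ± 1.54 CPM in dLG, VPM and MGv, which did not pass in any contrast by edgeR, DESeq2 or limma voom, nor had an unadjusted p under 0.05. Nefh had 15 such neighbours, of which 1, 2 and 3 passed, and Prph 26, of which 2, 4 and 3 passed. In the same contrasts 10.7%, 16.1% and 19.0% of all genes passed, and nothing is read from these counts. None of the 15 neighbours of Ina passed in any contrast by edgeR, where 3, 2 and 0 had an unadjusted p under 0.05, DESeq2 called 0 in each, and limma voom called 3, 0 and 0. Nt5c2, which shares exon bases with Ina, was at 70.0 ± 3.91, 70.1 ± 2.698 and 83.9 ± 16.1 CPM.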

How the data were processed

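RNA of tdTomato-positive neurons was made into cDNA with a SMARTer kit for small inputs and read from 1 end for 50 bases. Deposited per library were raw counts of reads in each gene, which the authors made by trimming (Trim Galore 0.6.1, cutadapt 2.3, per the submitters' processing notes), alignment with STAR 2.7.0d to mm10 (GRCm38) and counting in Ensembl genes with featureCounts (Subread 1.6.4). Counts were not normalized, and use of strand and treatment of reads with several alignments were not given in the sources used here.

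Groups and replicate numbers came from the sample titles. Nothing says that libraries came from separate litters. Symbols and exon lengths came from GENCODE M21, with a record for 54723 of 54752 identifiers. All 11 libraries were fitted together with edgeR 4.0.16 (R 4.3.3; filterByExpr, TMM, quasi-likelihood test of 3 group means), leaving 15907 genes. Calls use a Benjamini-Hochberg adjusted p under 0.1, and log2 CPM a prior count of 2. The fit was tested on simulated data. All 5 members passed the filter. Levels are TMM-scaled CPM, and floors cover counting error only.

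The members, gene lists and tests were chosen with earlier results of these data known. Named genes were all members, and up to 4 genes of each associated list called in a contrast and averaging 10 CPM or more in a nucleus, by largest absolute log2 fold change. They also include the 3 genes most similar to each member, and protein-coding genes within 500 kb. Some genes of the lists are not reported here, though the lists' counts include them. Alternatives were voom of limma 3.58.1 with weighted samples, DESeq2 1.42.0, its size factors in edgeR, total counts, no count filter, 10 counts in every library, a replicate block, GC and length offsets, both together, only the nuclei compared, a term for the libraries low in Hspa8, their removal, thinned counts, other thresholds and each library left out.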

Additional observations from a re-analysis of the deposited data

Results flagged for a closer look

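Of 110 sets of 4 libraries examined, 5 held a library whose gap to the nearest other exceeded Dixon's 95% value, which chance alone gives in about 1 of 20 sets. VPM 3, one of the libraries low in Hspa8, was in 4 of them. Ina was at 874 CPM there and at 1350 to 1450 in the other VPM libraries. Prph was at 5.27 CPM against 2.99 to 3.24, and its share of the family per kilobase was 0.279% against 0.108 to 0.134%. Synm was at 2.29 CPM against 7.32 to 8.35. Thy1 was at 112 CPM in VPM 1 against 72.3 to 78.3 in the others.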

How the results depend on the processing

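No log2 fold change of a member that passed the threshold changed sign under any alternative. For Ina, which never passed, the sign between dLG and VPM turned under total counts (0.05), with GC and length offsets and without dLG 1, dLG 3, VPM 1 or VPM 2, and between VPM and MGv under limma voom (0.01). With total counts, Nefl of dLG and VPM overlapped. Between dLG and VPM, 2 members passed; limma voom gave 4, total counts 1, an added minimum absolute log2 fold change of 1 gave 1, and fits without 1 library 0 to 3. With that minimum, 1 member passed between dLG and MGv, where fits without 1 library gave 2, and such fits gave 2 to 4 between VPM and MGv. The associated genes called between dLG and VPM, 9, became 14 with DESeq2, 29 with voom and 2 with the fold minimum, and 6 to 12 without 1 library. Between dLG and MGv the 21 became 10 with the fold minimum and 16 to 26 without 1 library, and between VPM and MGv the 28 became 11 and 17 to 31. Over all genes, the 1704 called between dLG and VPM became 4414 with voom, 2618 without the libraries low in Hspa8, 1101 without VPM 1 and 1093 without VPM 2. The cause was not tested, beyond the fewer genes that a fold minimum can keep.

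With replicate number as a block, 2, 2 and 3 members and 8, 19 and 23 associated genes passed, in the order of the contrasts above. The samples share only a number: deviations of same-numbered libraries correlated at -0.203 to 0.483 over 10 pairs, and others at -0.311 to 0.268 over 30. Low counts limit Prph and Hspb1, with 6 to 23 counts of Prph per MGv library.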
